A study of Mus musculus with 12 samples.

Results

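The interaction of 2 inhibitors, Kira8 and Stattic, was measured on messenger RNA in mouse Th17 cells, using all 12 of the 12 libraries of the study as a 2 by 2 design. The interaction of a gene is its Kira8 change with Stattic present minus its Kira8 change without it, (Kira8+Stattic minus Stattic) minus (Kira8 minus None), on the log2 scale. Naive T cells from the lymph nodes of wild-type mice had been differentiated toward the Th17 state, and 4 groups of 3 libraries were sequenced: no inhibitor (None), Kira8, Stattic, and both together (Kira8+Stattic), the inhibitors applied for 4 h. No dose, vehicle or animal is given for any group, and nothing in the labels says whether the 3 libraries of a group came from separate cultures, so p-values measure the spread between these libraries, which may be technical.

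Th17 cells are helper T cells that make IL-17 and need the transcription factor STAT3 to do so. Stattic is a small molecule that blocks the SH2 domain of STAT3. Kira8 binds the kinase domain of IRE1alpha (gene Ern1), the endoplasmic reticulum stress sensor, and damps its RNase, which splices Xbp1 mRNA into the form that encodes an active transcription factor and also degrades other mRNAs. With 2 inhibitors, a value of 0 on the log2 scale means that the fold changes multiply. A value opposite in sign to the Kira8 change means that this change moved toward 0, or past it, in the presence of Stattic. Such a value can arise in different ways, and genes were sorted by how each single inhibitor moved them. Saturation here means that both single inhibitors moved the gene in the same direction and the interaction had the opposite sign. Reversal means that Kira8 moved the gene, Stattic alone gave no call, and the interaction was opposite to the Kira8 change. Both words name these patterns only.

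Of the 12 libraries, Kira8 replicate 2 and Stattic replicate 2 stood apart. They held 19813462 and 9275672 counts, against 51669791 to 85890966 in the other 10, and mitochondrial genes took 61.55% and 10.66% of their counts, against 3.38% to 5.22%. Their rank correlations with every other library were 0.344 to 0.368 and 0.275 to 0.295, while each of the 10 correlated with some other library at 0.970 to 0.984. Results are therefore given from the 10 libraries without them, where Kira8 and Stattic have 2 libraries each. The 12-library counts are given for the interaction and for the contrasts it is built from. The Th17 cytokine genes Il17a and Il17f were among the transcripts of all 10 libraries, at 134 to 1394 CPM and 133 to 979 CPM (CPM is the share of a library's counts scaled up to a common total, here with TMM library factors).

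Among 21239 genes tested in the 10 libraries, 1810 had a called interaction (edgeR's quasi-likelihood test, Benjamini-Hochberg adjusted p under 0.05), which is 8.52% of genes. It was above 0 in 966 (4.55%) and below 0 in 844 (3.97%). The counts of gene lists below are to be read beside these shares. Their counts with a library left out are to be read beside those for all genes, given next. The smallest called interaction was 1.59-fold. The gene just inside the threshold was Pqlc2 (-1.17, adjusted p = 0.0499433) and the one just outside it Wdr61 (0.85, adjusted p = 0.0500117). The count was 498 to 2066 when single libraries were left out, highest without None replicate 1: leaving out Kira8 replicate 1 gave 498, Kira8 replicate 3 gave 515, Stattic replicate 3 gave 680, and Kira8+Stattic replicate 2 or 3 gave 1144 or 1137. With the 12 libraries fitted together, edgeR gave 0 calls among 20993 genes (0.0%). Before adjustment, 3542 had a p under 0.05 there. The same 12 libraries gave 611 calls in DESeq2, 0 in limma voom and 1545 in limma voom with library quality weights. Of the 1810 genes, 1651 had an interaction of the same sign in the 12-library fit, where the median standard error was 1.05 in place of 0.28.

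The single-inhibitor changes that feed the sorting were numerous. Kira8 changed 4097 genes against None (19.3%), Stattic 8281 (39.0%) and the combination 8676 (40.8%), and the combination differed from Kira8 in 6514 (30.7%). In all 12 libraries these 4 counts were 0, 65, 57 and 0, with 2689, 4110, 2420 and 2536 at an unadjusted p under 0.05 in edgeR. In contrast, only 3 genes (0.0141%) were called between the combination and Stattic alone, with 874 at an unadjusted p under 0.05 in the same edgeR test (0 and 1050 in 12 libraries). They were Gzma, which encodes granzyme A, and the predicted genes Gm21982 and Gm44503. A self-test on simulated counts recovered 81 of 100 genes with a 4-fold interaction and 5 of 100 with a 2-fold one, among 21218 genes with 0 false calls. It held far fewer changed genes than the 1810 called here, so its adjusted threshold was stricter. It therefore does not give the reach of the test in these libraries, where called interactions went down to 1.59-fold.

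The Kira8 change was nearly absent once Stattic was present. The 2060 genes that rose with Kira8 had a median log2 change of 1.05 without Stattic and 0.01 with it. The 2037 that fell had a median of -1.03 without Stattic and 0.01 with it. These medians come from libraries that do not overlap, since Kira8 against None and the combination against Stattic share none. Direction was not kept either: 51.9% of the genes that rose and 46.4% of those that fell had the same sign with Stattic, and 1 gene, Gzma, was called in the same direction. The Stattic change was kept more often when Kira8 was present. For the 4270 genes that rose with Stattic the median went from 1.66 to 0.97, with the same sign in 88.3% and 2037 called again, and for the 4011 that fell it went from -1.18 to -0.71, with 85.8% and 2154. Counts of list members that rose or fell with a single inhibitor, given below, are to be read beside these counts among 21239 genes.

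**Figure D1:**
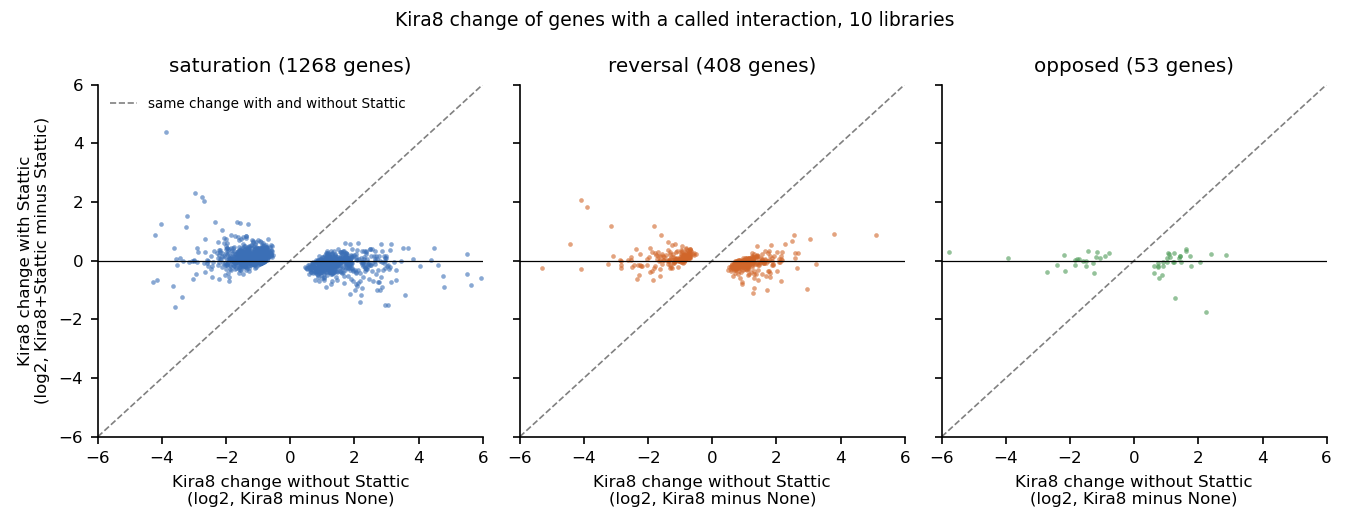
Kira8 change without Stattic (x axis, log2) against Kira8 change with Stattic (y axis, log2) for genes with a called interaction, each dot a gene, in the 3 largest classes. Dots lie along the horizontal line at 0 (21 saturation, 9 reversal and 2 opposed genes lie outside the axes, which end at 6). The interaction is the vertical distance from the dashed line of equal change. That the dots lie off that line therefore follows from showing only genes with a called interaction.

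Sorting the 1810 genes gave 1268 in the saturation class (70.1%) and 408 in the reversal class (22.5%). In a further 53 the single inhibitors moved the gene in opposite directions, in 49 only Stattic had moved it, and in 32 neither had. In this fit 0 genes had an interaction that enlarged a change made by both inhibitors alike or by a single one alone. In the 53 genes moved in opposite directions the Stattic change was larger with Kira8 present. Its median went from 1.04 to 2.89 where the interaction was above 0, and from -0.94 to -2.33 where it was below. On the same libraries DESeq2 gave 7 genes that only Stattic had moved and whose Stattic change was larger with Kira8, limma voom 0, and the other alternatives 0 to 3. The None libraries enter the Kira8 change, the Stattic change and the interaction alike, so these counts are a description and carry no test. Leaving out single libraries moved the counts of both classes, to 372 and 102 without Kira8 replicate 1, 415 and 74 without Kira8 replicate 3, and 465 and 181 without Stattic replicate 3, and the reversal count to 271, 218 and 188 without Kira8+Stattic replicates 1, 2 and 3. The share in the saturation class stayed between 68.4% and 80.6% over the 10 leave-outs.

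**Figure D2:**
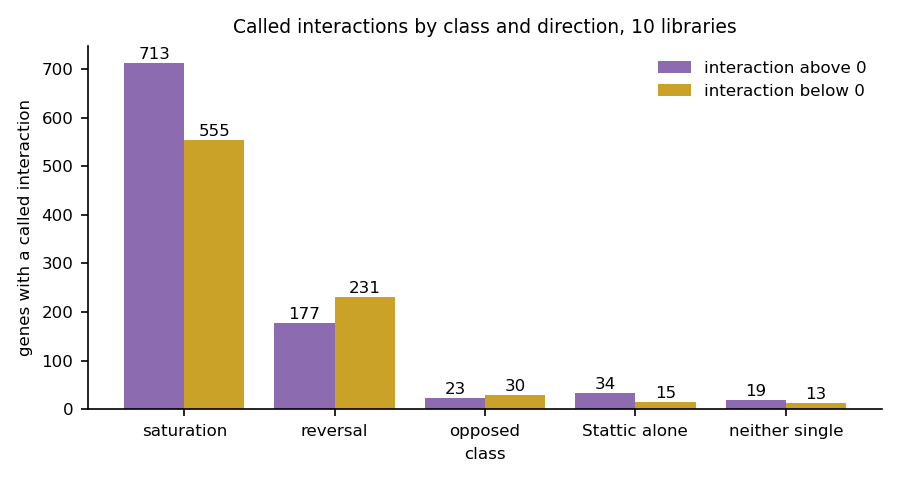
Number of genes with a called interaction (y axis) in each class (x axis), by the sign of the interaction. In the saturation class 713 genes that both inhibitors lowered had an interaction above 0 and 555 that both raised had one below 0.

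In the saturation class the combination was called against None, in the direction of the single inhibitors, in 1179 of the 1268 genes. It was never called past the single inhibitor with the larger change, it was called short of it in 166, and no call was made in 1102. All 166 were genes with the larger change under Kira8. Where the Stattic change was the larger, the comparison was the combination against Stattic, which called 3 of all 21239 genes tested (0.0141%). For those genes the lack of a call says nothing particular about the class, and that all 166 had the larger change under Kira8 follows largely from this. In 521 genes the Kira8 change was the larger, and in 465 of those the combination lay nearer to Stattic, the smaller change. The range of the combination libraries overlapped that of the Stattic libraries in 71.8% of the class, that of Kira8 in 31.2% and that of None in 4.5%, where over all genes tested the shares were 81.1%, 37.3% and 45.9%. Overlap with Stattic was thus more common than with Kira8 in the class and in all genes alike. The median ratio of the combination to the product of the single folds was 0.36 for genes that rose and 2.54 for genes that fell. Over all genes tested, called or not, it was 0.66 and 1.47. This ratio is the interaction on the linear scale, so its direction in the class follows from the rule of the class. On the linear scale the combination fell short of the sum of the single changes in 1260 of the 1268, and in 83.4% of all genes tested. For genes that fell, coming short of that sum also follows largely from the rule. For 566 of the 713 genes that fell that sum would be at or below 0 CPM, so a sum could not be reached.

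The genes that rose with each inhibitor and no further with both included Ramp3, Hpgds, Vps37b, Dusp8, Casz1 and Foxj1, which were among the 10 with the largest interactions below 0 at a mean of at least 5 CPM. Vps37b (chr5:124004641-124032270, minus strand, protein coding) encodes a subunit of the ESCRT-I complex that sorts membrane cargo. It stood at 18.8, 26.0 and 23.5 CPM in None, 272 and 226 in Kira8, 315 and 203 in Stattic, and 259, 272 and 241 in Kira8+Stattic. All 7 treated libraries stood far above None and the treated groups overlapped, while the product of the single folds would be 2826 CPM. The interaction was -3.46 ± 0.29 (SE, log2; adjusted p = 0.000325), and the Kira8 change of 3.45 went to -0.01 with Stattic. Cxcr4, the receptor for the chemokine CXCL12, was measured at 18.4 to 31.9 CPM in None, 169 and 213 in Kira8, 212 and 235 in Stattic and 208 to 258 with both, an interaction of -2.85 ± 0.30 (adjusted p = 0.00086). Here too the treated groups overlapped and None stood below all of them.

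Not every gene of this kind reached the same level in the treated groups. Casz1, which encodes a zinc finger transcription factor, stood at 7.30 to 11.0 CPM in None and 60.2 and 98.9 in Kira8, but at 12.6 and 23.8 in Stattic and 12.7 to 22.4 with both. Its combination libraries overlapped Stattic and lay well under Kira8 (interaction -3.21 ± 0.46, adjusted p = 0.00273). Tnfaip3 encodes A20, an inhibitor of NF-kB signalling, and went the same way, from a mean of 114 ± 48.0 CPM (SD, n = 3) in None to 584 ± 16.0 (n = 2) in Kira8, 235 ± 16.5 (n = 2) in Stattic and 198 ± 9.49 (n = 3) with both. Klf4 had the reverse order, with 4.71 ± 1.84 CPM in None, 20.6 ± 2.64 in Kira8, 113 ± 14.6 in Stattic and 116 ± 12.9 with both. In these 3 genes the level with both inhibitors was close to that with Stattic, whichever single change was larger. Exons of Vps37b and Casz1 overlap those of a gene on the other strand, as do those of Xcl1, Pes1, Ddit3, Manf, Fdft1, Rgs16, Slc29a1, Tmem63b, Fam169b, Amigo2, Pias3, Pax5, Stat3 and Bcl2, and those of Ifng and Pdia4 a gene on the same strand. The strand setting of the counting is not given in the sources used here. Reads of such pairs cannot be told apart.

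The genes that both inhibitors lowered included cytokines and chemokines. Of 22 T cell cytokine and chemokine genes tested, 9 had an interaction above 0 and 0 had one below (40.9% called, against 8.52% of all genes). All 9 were in the saturation class, and the median of the list was 2.51, against 0.01 for all genes. The count was 4 to 10 when single libraries were left out, and 4 without Kira8 replicate 1, Kira8 replicate 3 or Stattic replicate 3. Ccl3 (chr11:83647844-83649355, minus strand, protein coding), a chemokine that attracts monocytes and T cells, was measured at 169, 280 and 145 CPM in None, 14.3 and 17.3 in Kira8, 37.6 and 31.7 in Stattic, and 22.0, 19.4 and 15.9 with both. None stood above every treated library, and the combination fell between the 2 single inhibitors and overlapped Kira8 but not Stattic. Its interaction was 2.79 ± 0.38 (adjusted p = 0.00234), and the product of the folds would be 2.76 CPM. Lta, which encodes lymphotoxin alpha, went from 344 ± 52.4 CPM in None to 62.5 ± 3.19 in Kira8, 15.3 ± 4.56 in Stattic and 17.0 ± 1.53 with both. Ifng, the gene of interferon gamma, went from 169 ± 105 CPM to 9.52 ± 0.307, 13.1 ± 7.01 and 8.37 ± 3.15, but its call (adjusted p = 0.0109) was lost without Kira8 replicate 1 (0.0535), Kira8 replicate 3 (0.0555) or Stattic replicate 3 (0.0531).

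Il10, an inhibitory cytokine that Th17 cells can make, was one of 14 genes followed whatever their result. It stood at 21.9, 27.7 and 28.3 CPM in None, 2.43 and 3.94 in Kira8, 7.86 and 7.84 in Stattic, and 4.06, 6.39 and 4.89 with both. The groups of treated libraries did not reach None, and Kira8+Stattic lay between the single inhibitors (interaction 2.41 ± 0.38, adjusted p = 0.00419). Angptl2, a secreted angiopoietin-like protein gene (chr2:33216069-33247717, plus strand), stood at 254 to 294 CPM in None, 44.8 and 30.5 in Kira8, 108 and 93.7 in Stattic and 87.1 to 117 with both. Adding Stattic to Kira8 thus gave 1.39 more on the log2 scale (adjusted p = 0.000427), up to the Stattic level.

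Cytotoxic effector genes, the tools of target cell killing, were also lowered by Kira8 in 7 of 12, against 2037 of all 21239 genes tested. Over all genes tested, 4.55% had an interaction called above 0. Of the 12 tested, 4 had an interaction above 0 and 0 below (3 to 5 over the leave-outs), and their median Kira8 change was -1.99 without Stattic and -0.70 with it, against -0.15 with it for the cytokines and chemokines and 0.01 for all genes, a difference that was not tested. With Stattic present 1 of the 12 was called for Kira8, Gzma. Gzmb, the gene of the protease granzyme B, was measured at 964, 1368 and 744 CPM in None, 84.1 and 85.6 in Kira8, 408 and 353 in Stattic, and 153, 132 and 92.8 with both. The combination libraries lay below both Stattic libraries and above both Kira8 libraries. The interaction was 2.00 ± 0.37 (adjusted p = 0.00867), and the Kira8 change with Stattic, -1.60, had an adjusted p of 0.0981. Gzma (chr13:113093825-113100981, minus strand, protein coding), chosen for description after its values were seen, stood at 49.8, 55.2 and 40.0 CPM in None, 10.9 and 10.4 in Kira8, 61.6 and 42.6 in Stattic, and 13.1, 10.8 and 9.40 with both. Stattic overlapped None and the combination overlapped Kira8, so here the Kira8 change was about as large with Stattic (-2.23, adjusted p = 0.00379) as without it (-2.19). Its interaction was -0.05 ± 0.30 (95% interval -0.70 to 0.60, adjusted p = 0.966), and the product of the folds, 11.4 CPM, was close to the measured 11.1.

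Markers of other lymphocytes moved in the same libraries as these genes. Over all genes tested 8.52% had a called interaction. For CD8 T and NK cells, 10 markers with Gzma and Nkg7 among them had a summed level that was 284 to 449 CPM in None, 87.5 to 110 in Kira8, 181 to 239 in Stattic and 103 to 164 with both, and 2 of the 9 tested, Cd8a and Nkg7, had a called interaction (1 without Kira8 replicate 3 or Stattic replicate 3, where Cd8a had an adjusted p of 0.0914 and 0.084). The NK cell marker Ncr1 was at 0 in 9 of the 10 libraries and at 0.111 CPM in the other. Other members of the list were detected, with Klrd1 at 15.8 to 46.6 CPM, Klrk1 at 14.8 to 63.8 and Klrb1c at 0.063 to 2.85 over the 10 libraries. The 10 B cell markers summed to 311 to 420 CPM in None, 162 to 189 in Kira8, 69.2 to 122 in Stattic and 64.2 to 128 with both, with 4 of 10 called, among them Pax5 at 2.54 ± 0.45 (adjusted p = 0.00752). That count was 1 without Kira8 replicate 3 or Stattic replicate 3, 2 without Kira8 replicate 1, Kira8+Stattic replicate 1 or Kira8+Stattic replicate 2, and 3 to 5 in the other leave-outs. Myeloid markers summed to 31.0 to 119.9 CPM over the 10 libraries, with 0 of 8 called in edgeR (2 at an unadjusted p under 0.05, 0 in DESeq2 and 0 in limma voom). In bulk RNA, fewer cells of a type and less RNA per cell cannot be told apart, and the part of these cells in the results was not tested.

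**Figure D3:**
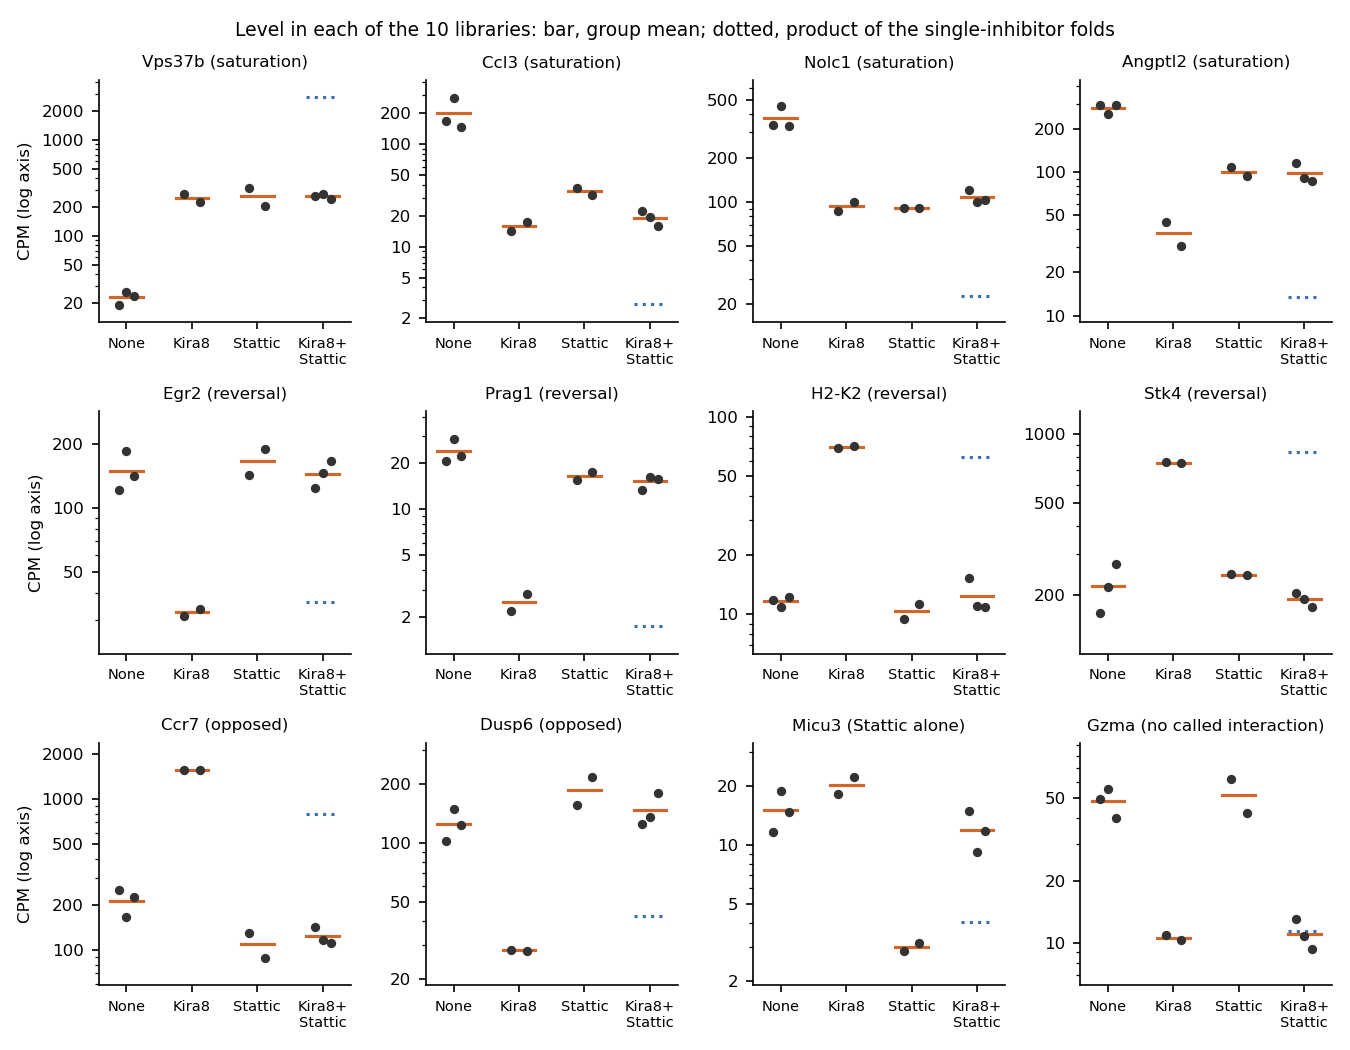
Level of 12 genes (y axis, TMM-scaled CPM, log axis) in each of the 10 libraries, by group (x axis). Solid bars are group means and dotted bars the level in Kira8+Stattic that the product of the single folds would give. Vps37b, Ccl3 and Nolc1 are saturated, the combination of Egr2, Prag1 and H2-K2 overlaps Stattic, that of Stk4 lies just below Stattic, and Kira8 stands apart in all 4, and Gzma alone among the 12 lies at its product.

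Ribosome biogenesis genes, whose products make and assemble ribosomal RNA and subunits in the nucleolus, formed the list with the largest share of called interactions among the 36 lists. Of 30 tested, 29 fell with Kira8 and 29 fell with Stattic, against 2037 and 4011 of all 21239 genes tested. An interaction above 0 was called in 25, all 25 in the saturation class, which is 83.3% of the list against 8.52% of all genes. The count was 10 to 29 when single libraries were left out, lowest without Kira8 replicate 1, and 14 and 15 without Stattic replicate 3 and Kira8 replicate 3. The list's median change was -1.33 with Kira8, -1.83 with Stattic, -1.84 with both, and 0.06 for Kira8 added to Stattic. Nolc1 (chr19:46075863-46085530, plus strand), a nucleolar chaperone of small nucleolar RNA particles, stood at 339, 457 and 333 CPM in None, 86.5 and 101 in Kira8, 91.0 and 91.9 in Stattic, and 122, 100 and 103 with both. The treated groups lay together, all far below None (interaction 2.25 ± 0.26, adjusted p = 0.0011). Srm, the gene of spermidine synthase, had 192 ± 28.8 CPM in None, 40.3 ± 0.55 in Kira8, 32.3 ± 9.72 in Stattic and 34.4 ± 8.46 with both. The 35 cytosolic ribosomal protein genes, in contrast, had 0 called interactions in edgeR (0 at an unadjusted p under 0.05, 0 in DESeq2 and 0 in limma voom) and a median Kira8 change of 0.05. With Stattic 24 of the 35 rose (median 0.69), against 4270 of all 21239 genes tested.

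The promoters of 2 such genes, Nop2 and Pes1, are shown because they hold an E-box in letters, and both genes were chosen after their values were seen. Nop2, which encodes a methyltransferase of ribosomal RNA, went from 265 ± 1.63 CPM in None to 82.4 ± 11.1 in Kira8, 48.1 ± 1.43 in Stattic and 45.2 ± 9.46 with both (interaction 1.60 ± 0.26, adjusted p = 0.00465). Pes1, a factor of the large subunit, went from 177 ± 14.0 to 81.6 ± 0.15, 63.5 ± 13.9 and 71.9 ± 11.5 CPM (1.29 ± 0.26, adjusted p = 0.0117, lost without Kira8 replicate 1 at 0.0651, Kira8 replicate 3 at 0.0649 or Stattic replicate 3 at 0.0588). Each run below covers 250 bases before to 50 after a RefSeq start site in the mouse build GRCm38.p6, printed 5′ to 3′ on the gene's strand, and capitals mark the E-box CACGTG. The Nop2 run is chr6:125131633-125131932 on the plus strand, with the E-box starting at -60 from the start base. The Pes1 run is chr11:3963725-3964024 on the plus strand, with it at 2.
Nop2: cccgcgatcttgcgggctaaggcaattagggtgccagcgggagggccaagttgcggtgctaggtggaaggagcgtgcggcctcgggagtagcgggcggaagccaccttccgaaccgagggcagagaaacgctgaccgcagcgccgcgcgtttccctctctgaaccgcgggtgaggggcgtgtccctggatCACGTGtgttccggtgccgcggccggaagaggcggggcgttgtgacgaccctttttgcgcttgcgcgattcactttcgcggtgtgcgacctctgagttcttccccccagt
Pes1: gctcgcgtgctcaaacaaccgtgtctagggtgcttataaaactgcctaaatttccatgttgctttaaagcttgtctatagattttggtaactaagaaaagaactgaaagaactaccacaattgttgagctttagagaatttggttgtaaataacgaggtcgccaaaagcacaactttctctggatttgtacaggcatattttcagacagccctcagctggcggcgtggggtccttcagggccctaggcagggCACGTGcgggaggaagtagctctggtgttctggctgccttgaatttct

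Other groups of saturated genes moved up or down with both inhibitors. Autophagy and lysosome genes had 12 of 28 interactions called, all below 0 (5 to 14 over the leave-outs, 5 without Kira8 replicate 1 and 6 without Kira8 replicate 3 or Stattic replicate 3), and 11 of the 12 were saturated. Ulk1, the kinase that starts autophagy, stood at 28.1 to 47.1 CPM in None, 240 and 237 in Kira8, 172 and 176 in Stattic and 157 to 169 with both, so that the combination lay just below Stattic and well below Kira8 (interaction -2.74 ± 0.27, adjusted p = 0.000674). Sqstm1, an autophagy receptor named after its values were seen, went from 120 ± 10.6 CPM to 434 ± 114, 473 ± 31.5 and 475 ± 109. The exception was Mcoln1, a lysosomal calcium channel gene, which was in the reversal class and lost its call without Kira8 replicate 1 (0.0511). The median of the list was 0.64 with Kira8, 0.96 with Stattic and -0.03 for Kira8 added to Stattic. Its 12 calls are 42.9% of the list, against 8.52% of all genes.

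Targets of ATF4 and CHOP, the transcription factors of the integrated stress response, had 7 of 32 interactions called, 6 below 0 and 1 above, all saturated (4 to 9 over the leave-outs, lowest without Kira8 replicate 3). The 7 calls are 21.9% of the list, against 8.52% of all genes. Ddit3, which encodes CHOP itself, was measured at 13.9, 12.8 and 13.8 CPM in None, 42.0 and 58.5 in Kira8, 95.2 and 94.6 in Stattic, and 89.1, 119 and 118 with both. Kira8 stood between None and the Stattic libraries, and the combination overlapped Stattic (interaction -1.70 ± 0.25, adjusted p = 0.00318). Trp53inp1, a p53 target, rose 2.81 with Kira8 and 2.44 with Stattic on the log2 scale, to 954 ± 115 CPM with both from 177 ± 25.3 in None, where the product would be 6734. Chac1, which encodes an enzyme that cleaves glutathione, stood at 2.22 to 2.71 CPM in None, 11.7 and 17.1 in Kira8, 15.6 and 12.5 in Stattic and 13.4 to 21.5 with both (-2.15 ± 0.35, adjusted p = 0.00513). Its promoter, shown because it holds the C/EBP-ATF response element TGATGNAA, is the GRCm38.p6 run chr2:119350992-119351291 on the plus strand, with that element on the other strand in capitals, starting at -193.
Chac1: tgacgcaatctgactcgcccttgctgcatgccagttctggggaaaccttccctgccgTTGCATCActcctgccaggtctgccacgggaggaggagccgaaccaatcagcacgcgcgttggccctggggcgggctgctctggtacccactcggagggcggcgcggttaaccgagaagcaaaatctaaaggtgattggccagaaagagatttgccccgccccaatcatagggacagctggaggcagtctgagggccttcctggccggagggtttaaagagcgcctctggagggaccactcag

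Of 15 endoplasmic reticulum chaperones and ATF6 targets, 10 fell with Kira8 and 5 gave no call, while 6 fell and 2 rose with Stattic. Of all 21239 genes tested 2037 fell with Kira8, and 4011 fell and 4270 rose with Stattic. The list had 6 of 15 interactions called (40.0%, against 8.52% of all genes), all above 0, 5 of them saturated. The count was 2 to 8 over the leave-outs, with 2 without Kira8 replicate 1, Kira8 replicate 3 or Stattic replicate 3 and 3 without Stattic replicate 1. Sdf2l1, a component of the chaperone complex of the endoplasmic reticulum, stood at 27.9, 27.0 and 25.8 CPM in None, 7.42 and 6.88 in Kira8, 12.6 and 11.0 in Stattic, and 16.4, 14.9 and 15.8 with both. The 3 combination libraries lay above both single inhibitors and below None (interaction 2.32 ± 0.24, adjusted p = 0.000719). Pdia4, a protein disulfide isomerase gene, went from 121 ± 25.5 CPM to 35.6 ± 3.26 in Kira8, 40.8 ± 4.44 in Stattic and 44.4 ± 2.17 with both. Hspa5, which encodes the chaperone BiP, missed the call: it stood at 846 to 1660 CPM in None, 474 and 482 in Kira8, 1009 and 1267 in Stattic and 1050 to 1461 with both, with an interaction of 1.31 ± 0.40 (95% interval 0.45 to 2.18, adjusted p = 0.0611). The 28 targets of spliced XBP1 had 3 called interactions (10.7%, near the 8.52% of all genes), all above 0 (0 without Kira8 replicate 3 or Stattic replicate 3 and 1 without Kira8 replicate 1). The 8 tested genes of the IRE1 decay list had 0 called in edgeR, DESeq2 and limma voom and 1 at an unadjusted p under 0.05 in edgeR, with a median Kira8 change of -0.24.

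Cholesterol synthesis genes had 7 of 25 interactions called, all below 0 and 6 saturated (2 without Kira8 replicate 3, 4 without Kira8 replicate 1 or Stattic replicate 1, and 5 to 9 in the other leave-outs). Fdft1, the gene of squalene synthase, was at 56.9 to 59.1 CPM in None, 153 in both Kira8 libraries, 147 and 121 in Stattic and 151 to 158 with both, an interaction of -1.20 ± 0.19 (adjusted p = 0.00507). Quiescence and FOXO genes had 8 of 22, all below 0 (2 without Kira8 replicate 1, 4 without Stattic replicate 3, 5 without Kira8 replicate 3, Kira8+Stattic replicate 1 or Kira8+Stattic replicate 2, and 6 to 10 in the other leave-outs), of which 6 were saturated, Il7r was in the reversal class and Ccr7 was moved in opposite directions. Pro-apoptotic genes had 5 of 23, with 4 below 0, and 1 without Kira8 replicate 3, 3 without Kira8 replicate 1 or Stattic replicate 3, and 4 to 5 in the other leave-outs. Apaf1, the scaffold of the apoptosome, stood at 55.0 to 74.5 CPM in None, 168 and 175 in Kira8, 86.4 and 119 in Stattic and 71.3 to 86.3 with both. Those combination values overlapped None (interaction -1.73 ± 0.26, adjusted p = 0.0034), although Stattic alone had passed its own test. Interferon-stimulated genes had 0 of 31 called in edgeR, with 14 at an unadjusted p under 0.05, 5 called in DESeq2 and 0 in limma voom, although 20 of them fell with Stattic. Over all genes tested 8.52% had a called interaction, 3.97% below 0, and 4011 of 21239 fell with Stattic.

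**Figure D4:**
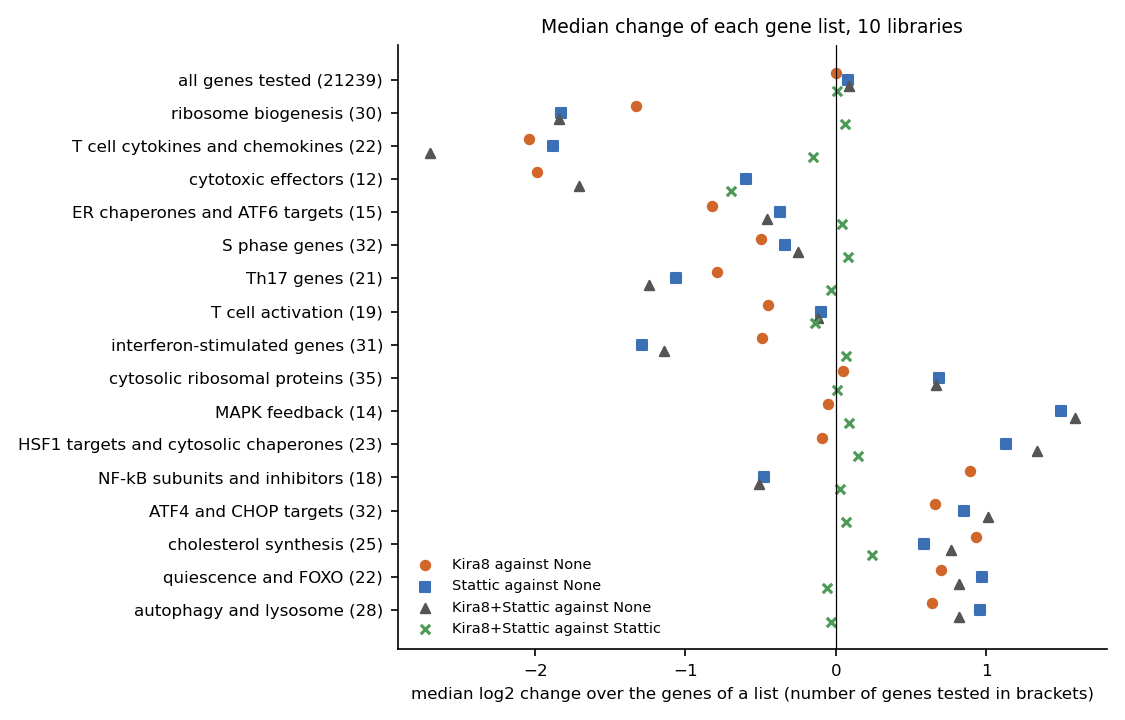
Median log2 change (x axis) over the genes of each list (y axis, number tested in brackets) for Kira8, Stattic and Kira8+Stattic against None and for Kira8+Stattic against Stattic. The crosses of the last comparison lie between -0.15 and 0.24 in every list shown except the cytotoxic effectors, at -0.70, while the circles for Kira8 against None run from -2.04 to 0.93.

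Reversal, the second class, held 408 genes, 231 that rose with Kira8 and 177 that fell. A missing Stattic call is not absence of change, so the Stattic change was also bounded: it was under 1.5-fold in 367 of the 408, and its 95% interval lay within 2-fold of None in 331. The combination was called against Kira8, in the direction opposite to the Kira8 change, in 396, where 30.7% of all genes tested were called in either direction. The combination minus Kira8 is the Stattic change plus the interaction, so the 396 follow largely from the rule of the class. With Stattic present, Kira8 gave no call in any of the 408, as in all but 0.0141% of all genes tested, so that count says nothing particular about the class. The combination had returned to a level not called against None in 359. The other 49 were called against None, 31 in the direction of Kira8 and 18 in the opposite direction. The range of the combination libraries overlapped that of Kira8 in 0 of 408, of Stattic in 75.5% and of None in 70.3%, against 37.3%, 81.1% and 45.9% of all genes tested. The first of these follows in part from the rule, and no test rests on any of them. Of the 408, 352 had a mean of at least 5 CPM.

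Genes that Kira8 lowered and Stattic alone left without a call included regulators of T cell activation. Of 19 T cell activation genes 6 had a called interaction, 5 of them above 0 (2 to 7 over the leave-outs, lowest without Kira8 replicate 1 or 3), with Egr1, Egr2 and Pdcd1 in the reversal class. The 6 calls are 31.6% of the list, against 8.52% of all genes. Egr2 (chr10:67535475-67542188, plus strand, protein coding), a transcription factor induced by T cell receptor signals, stood at 121, 185 and 141 CPM in None, 31.3 and 33.8 in Kira8, 143 and 188 in Stattic, and 124, 145 and 165 with both. None, Stattic and the combination overlapped, and both Kira8 libraries lay far below them. The interaction was 2.00 ± 0.30 (adjusted p = 0.00342): the Kira8 change of -2.20 became -0.20, and the Stattic change was 0.15 (95% interval -0.29 to 0.60). Pdcd1, which encodes the inhibitory receptor PD-1, stood at 93.2, 128 and 98.1 CPM in None, 32.0 and 28.1 in Kira8, 101 and 88.4 in Stattic and 68.4, 87.0 and 80.8 with both. Its combination libraries lay below the lowest None library and well above Kira8, and the combination was called against None (-0.44, adjusted p = 0.0448), an example of incomplete return. Egr1 went from 313 ± 47.6 CPM to 134 ± 3.03 in Kira8, 298 ± 39.4 in Stattic and 306 ± 25.5 with both (1.26 ± 0.24, adjusted p = 0.0102, lost without Kira8 replicate 1 at 0.0595 or Kira8 replicate 3 at 0.0651).

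The largest interaction among the reversal genes that fell, at a mean of at least 5 CPM, was that of Prag1 (chr8:36094828-36147787, plus strand, protein coding), which encodes a pseudokinase scaffold. It stood at 20.6, 28.9 and 22.1 CPM in None, 2.18 and 2.80 in Kira8, 15.5 and 17.4 in Stattic, and 13.4, 16.3 and 15.8 with both. Stattic and the combination overlapped and lay between the other 2 groups, below None. The interaction was 3.14 ± 0.31 (adjusted p = 0.000674), but the Stattic change of -0.53 (95% interval -0.98 to -0.08, adjusted p = 0.0586) was near its own threshold. Angptl4, an inhibitor of lipoprotein lipase, was closer to no Stattic change, with 9.48 ± 2.64 CPM in None, 1.54 ± 0.474 in Kira8, 9.05 ± 1.24 in Stattic and 9.17 ± 1.03 with both (2.64 ± 0.42, adjusted p = 0.00427). Rgs16, a regulator of G protein signalling, stood at 252 ± 98.1 CPM in None, 54.6 ± 0.696 in Kira8, 382 ± 2.82 in Stattic and 339 ± 53.9 with both. Manf, the reversal gene among the chaperones, stood at 111 ± 32.4, 44.8 ± 0.0601, 76.7 ± 5.17 and 80.1 ± 6.47 CPM in the same order (1.38 ± 0.31, adjusted p = 0.0192), a call lost without Kira8 replicate 1 (0.0834), Kira8 replicate 3 (0.0851) or Stattic replicate 3 (0.0828).

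S phase genes, which serve DNA replication, had 8 of 32 interactions called, all above 0, 4 in the saturation class and 4 in the reversal class. The count was 0 without Kira8 replicate 1, Kira8 replicate 3 or Stattic replicate 3. It was 3 without Kira8+Stattic replicate 3, 4 without Kira8+Stattic replicate 2 or None replicate 3, 5 without Kira8+Stattic replicate 1 or Stattic replicate 1, and 7 to 10 without the other None libraries. Mcm2, a subunit of the replicative helicase, had 257 ± 49.6 CPM in None, 115 ± 1.82 in Kira8, 166 ± 21.1 in Stattic and 166 ± 4.34 with both (1.15 ± 0.25, adjusted p = 0.0165 and 0.0811, 0.0895 and 0.0849 without those 3 libraries). Slc29a1, which encodes a nucleoside transporter and was chosen after its values were seen, stood at 231, 180 and 194 CPM in None, 81.0 and 71.2 in Kira8, 184 and 177 in Stattic, and 187, 179 and 176 with both. Only the Kira8 libraries stood apart, and the Kira8 change of -1.41 was 0.00 with Stattic (interaction 1.41 ± 0.22, adjusted p = 0.00419). The Slc29a1 promoter is shown as one of 8 promoters of reversal genes that fell with the EGR site GCGTGGGCG, the DNA letters bound by Egr1 and Egr2. It is the GRCm38.p6 run chr17:45595815-45596114, read on the minus strand from one of several start sites of the gene, with the site in capitals starting at -87.
Slc29a1: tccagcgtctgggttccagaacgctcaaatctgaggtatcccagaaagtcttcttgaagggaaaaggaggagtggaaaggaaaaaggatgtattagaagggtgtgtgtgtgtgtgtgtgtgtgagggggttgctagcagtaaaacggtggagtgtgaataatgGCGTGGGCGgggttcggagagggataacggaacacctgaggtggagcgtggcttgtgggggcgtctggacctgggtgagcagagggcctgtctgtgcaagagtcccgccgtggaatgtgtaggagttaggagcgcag

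Letters of 10 motifs were counted on both strands in 15827 RefSeq promoters of 12506 of the tested genes. The motifs were the E-box CACGTG (9.21% of promoters), the cyclic AMP element TGACGTCA (2.76%), the heat shock element GAANNTTC (5.98%), the STAT site TTCNNNGAA (7.05%), the AP-1 site TGANTCA (5.69%), the C/EBP-ATF element TGATGNAA (2.43%), the unfolded protein element TGACGTGG (0.821%), CCAAT (37.3%), the EGR site GCGTGGGCG (1.09%) and the ETS core CCGGAA (24.0%). None of these strings contains another, though matches can share bases. The E-box was in 14.5% of the 688 promoters of saturated genes that fell, 9.32% of those that rose, and 9.94% and 8.59% of reversal genes that fell and rose. It was in 7 of the 29 promoters of the ribosome biogenesis list (24.1%). The EGR site was in 8 of the 181 promoters of reversal genes that fell (4.42%), 0.391% of reversal genes that rose, and 1.02% and 1.90% of saturated genes that fell and rose. The STAT site was in 8.58% and 4.94% of saturated genes that fell and rose, and 4.97% and 7.42% of reversal genes. These are counts of letters with no test, and promoters differ in base composition and share genes.

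Among the genes that rose with Kira8 and were reversed, H2-K2, Tmem63b, Fam169b, Stk4, Tecpr1, Amigo2 and Neat1 were among the 10 with the largest interactions below 0 at a mean of at least 5 CPM. Stk4 (chr2:164070322-164155524, plus strand, protein coding) encodes the MST1 kinase of the Hippo pathway, known in T cells for survival and homing. It stood at 166, 217 and 273 CPM in None, 755 and 749 in Kira8, 245 and 243 in Stattic, and 203, 192 and 177 with both. The Kira8 libraries were more than 2-fold above all others, and the remaining groups lay within the spread of None (interaction -2.14 ± 0.27, adjusted p = 0.00175). Amigo2, which encodes a cell adhesion protein, went from 9.91 ± 1.45 CPM in None to 36.7 ± 6.08 in Kira8, 9.66 ± 0.892 in Stattic and 8.96 ± 0.29 with both, with a Stattic change of -0.04 (95% interval -0.45 to 0.38). The nuclear noncoding RNA Neat1 stood at 148 ± 36.7, 651 ± 34.3, 171 ± 66.0 and 191 ± 39.8 CPM in the same order (-1.98 ± 0.37, adjusted p = 0.00858). H2-K2 is annotated as a pseudogene of the class I histocompatibility genes, whose copies are near-identical, so its reads may belong to a relative. It stood at 11.7 ± 0.701 CPM in None, 70.4 ± 0.858 in Kira8, 10.4 ± 1.26 in Stattic and 12.4 ± 2.49 with both.

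Receptors and signalling regulators were in this group too. Il7r, the receptor chain for the survival cytokine IL-7, stood at 76.3, 91.5 and 76.3 CPM in None, 177 and 171 in Kira8, 88.4 and 91.3 in Stattic, and 82.5, 95.8 and 74.2 with both (interaction -1.19 ± 0.22, adjusted p = 0.00834, and 0.0529 without Kira8 replicate 1). Fas, the death receptor, stood at 30.1 ± 4.31, 63.1 ± 1.80, 21.6 ± 2.15 and 18.5 ± 2.62 CPM in None, Kira8, Stattic and both. Its combination lay below None (-0.70, adjusted p = 0.0039), past a full return, and the interaction of -1.29 ± 0.25 had an adjusted p of 0.00977 that rose to 0.0559 without Kira8 replicate 3. Pias3, an inhibitor of STAT3, went from 12.8 ± 0.826 CPM to 30.2 ± 1.21 in Kira8, 13.3 ± 0.366 in Stattic and 11.5 ± 2.54 with both (-1.45 ± 0.27, adjusted p = 0.00924, and 0.0557 without Kira8 replicate 1). NF-kB subunits and inhibitors had 4 of 18 interactions called, all below 0, spread over the saturation class (Tnfaip3), the reversal class (Tnip1, whose call was lost without Kira8 replicate 3 at 0.0627) and the opposed class (2 genes). In that list 11 of 18 rose and 1 fell with Kira8 (median 0.89), 3 rose and 8 fell with Stattic (median -0.48), and its count was 1 without Kira8 replicate 3, 2 without Kira8 replicate 1, Kira8+Stattic replicate 2 or Kira8+Stattic replicate 3, 10 without None replicate 2, and 3 to 5 in the other leave-outs.

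In the 53 opposed genes Kira8 and Stattic moved the gene in different directions. All 53 were called between the combination and Kira8 (30.7% of all genes tested). In 51 the combination was called against None in the direction opposite to Kira8 (40.8% of all genes tested were called, in either direction). In all 53 it lay nearer to Stattic than to Kira8. The combination minus Kira8 is the Stattic change plus the interaction, so these counts follow in part from the rule of the class. No test rests on them. Ccr7 (chr11:99144196-99155077, minus strand, protein coding), the receptor that guides T cells into lymph nodes, stood at 248, 165 and 223 CPM in None, 1550 and 1567 in Kira8, 130 and 88.0 in Stattic, and 142, 117 and 111 with both. The combination overlapped Stattic and lay below None, and the Kira8 libraries were above all others (interaction -2.70 ± 0.30, adjusted p = 0.000935). Zhx2, which encodes a zinc finger and homeobox repressor, went from 30.8 ± 8.66 CPM to 161 ± 21.6, 12.8 ± 3.44 and 14.9 ± 4.10. Dusp6, a phosphatase that turns off ERK, had the other direction, at 102, 148 and 123 CPM in None, 28.4 and 28.1 in Kira8, 157 and 216 in Stattic, and 125, 136 and 180 with both (1.80 ± 0.31, adjusted p = 0.00639). Its combination libraries overlapped both None and Stattic and lay far above Kira8. Gadd45g, a growth arrest and DNA damage gene, went from 57.8 ± 6.89 CPM to 12.8 ± 0.119, 102 ± 20.1 and 114 ± 43.2. Over all genes tested 8.52% had a called interaction. Of 14 MAPK feedback genes 6 had a called interaction, 3 in each direction (3 without Kira8 replicate 1, Kira8 replicate 3 or Stattic replicate 3 and 4 to 8 in the other leave-outs), with Dusp6 and Spry2 opposed and Dusp8 saturated.

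The 2 smallest classes held mostly weakly expressed genes. Of the 49 genes that only Stattic had moved, 14 had a mean of at least 5 CPM, and of the 32 that neither had moved, 6 had. Fitted folds at such levels are no measure of size. Micu3, which encodes a subunit of the mitochondrial calcium uniporter, stood at 11.7, 19.0 and 14.9 CPM in None, 18.4 and 22.3 in Kira8, 2.87 and 3.14 in Stattic, and 15.0, 9.20 and 11.8 with both. Here the combination overlapped None, and the Stattic change of -2.33 was reduced to -0.76 in the presence of Kira8 (adjusted p = 0.0369; interaction 1.57 ± 0.37, adjusted p = 0.0231). The call was lost without Kira8 replicate 1 (0.116), Kira8 replicate 3 (0.073), Stattic replicate 1 (0.0661) or Stattic replicate 3 (0.0732).

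Of the 14 genes followed whatever their result, Il10, Bcl2l11 and Ddit3 had a called interaction and 11 did not. Bcl2l11, which encodes the pro-apoptotic protein BIM, went from 37.6 ± 2.48 CPM in None to 78.5 ± 11.9 in Kira8, 128 ± 27.0 in Stattic and 116 ± 26.1 with both (-1.20 ± 0.29, adjusted p = 0.0265), a call lost without Kira8 replicate 1 (0.133), Kira8 replicate 3 (0.0627) or Stattic replicate 3 (0.126). Both IL-17 genes fell with each single inhibitor, and their interactions missed the call. Il17a stood at 514, 1394 and 247 CPM in None, 149 and 155 in Kira8, 165 and 134 in Stattic, and 144, 180 and 162 with both, so that the None libraries varied widely while the treated libraries lay together (interaction 2.36 ± 0.72, 95% interval 0.79 to 3.92, adjusted p = 0.0636). Il17f had 1.94 ± 0.62 (adjusted p = 0.0769). Il17a passed the test without None replicate 1 (0.0467), None replicate 2 (0.0452) or None replicate 3 (0.00941), and with no filter (0.0463) or a stricter one (over 1 CPM in at least 2 libraries, 0.0457), and Il17f without None replicate 3 (0.00942). Xbp1 stood at 212 ± 28.6, 129 ± 25.6, 182 ± 14.8 and 199 ± 14.8 CPM and Socs3, a feedback inhibitor of STAT3 signalling, at 140 ± 25.1, 91.5 ± 7.78, 127 ± 5.93 and 149 ± 11.7 CPM. Their interactions of 0.85 ± 0.25 each had adjusted p of 0.0569 and 0.055, and DESeq2 called both (0.00743 and 0.00819), as it did Hspa5 (0.00837). Limma voom called all 3 (0.0423, 0.0498 and 0.0462), and so did edgeR with the stricter filter (0.0423, 0.0426 and 0.0443). Xbp1 also passed without None replicate 3 (0.0374), Socs3 without None replicate 2 (0.0187), and Hspa5 without None replicate 1 (0.0333) or None replicate 3 (0.0376).

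For the remaining followed genes the interval of the interaction is the result. It was -1.60 to 0.06 for Ern1 and -0.93 to 0.01 for Stat3, the genes of the 2 targeted proteins, whose mRNA each rose with Kira8 (0.83 and 0.49, adjusted p = 0.0495 and 0.0409). Each also rose with both inhibitors (0.72 and 0.63, adjusted p = 0.0333 and 0.00282). With Stattic alone Stat3 rose (0.60, adjusted p = 0.00739) and Ern1 gave no call (0.66, adjusted p = 0.0725). The interval of the interaction was -0.93 to 0.74 for Il23r, the IL-23 receptor. Among the survival genes of the BCL2 family it was -0.81 to 0.69 for Bcl2, -0.73 to 0.64 for Bcl2l1 and -0.80 to 0.26 for Mcl1. Bcl2l1 stood at 132, 202 and 109 CPM in None, 149 and 156 in Kira8, 42.2 and 36.4 in Stattic, and 39.3, 36.2 and 42.2 with both, with the product of the folds, 40.6 CPM, at the measured 39.2. In Bcl2 and Bcl2l1 Kira8 gave no call, Stattic lowered the gene (-1.81 and -1.91) and the combination lay at Stattic.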

How the data were processed

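Total RNA of 12 mouse Th17 libraries, 3 per group, was sequenced, and the authors deposited a table of read counts per gene, which holds whole numbers for 55401 genes with no normalization. The build is mm10 per the submitters' processing notes, while aligner, counter, annotation and strand setting were not given in the sources used here. RNA was extracted with Trizol, per the labels' protocols. Total counts were 51669791 to 85890966 in 10 libraries, and Kira8 replicate 2 (19813462) and Stattic replicate 2 (9275672) were left out of the gene values.

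Counts were fitted with edgeR 4.0.16 (R 4.3.3) by its quasi-likelihood test, with filterByExpr, TMM factors and a coefficient per group, in 12 and in 10 libraries, and p-values were adjusted over all genes tested by the Benjamini-Hochberg method. A call is an adjusted p under 0.05. DESeq2 1.42.0, limma 3.58.1 voom, other scalings and filters, glmTreat at 1.5-fold, a replicate block and each library left out were alternatives. The edgeR step was tested on simulated data. Genes were named by size of interaction in each class at a mean of at least 5 CPM, by smallest adjusted p in each list (up to 3), or as 14 genes followed always. Gzma, Nop2, Pes1, Slc29a1, Sqstm1, Mcoln1, the predicted genes, and marker genes given by name were named after their values were seen. The members, classes and 36 gene lists were chosen with earlier results of these data known. Gene positions are from GENCODE vM21 and promoters from RefSeq, both on GRCm38.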

Additional observations from a re-analysis of the deposited data

Results flagged for a closer look

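The Kira8 change differed between cells with and without Stattic in 1810 of 21239 genes by the interaction test (edgeR's quasi-likelihood test, adjusted p under 0.05, 10 libraries), which is what brought it here. All 4 groups enter that test, and each of Kira8 and Stattic had 2 libraries in it.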

How the results depend on the processing

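Called interactions and the saturation and reversal classes (1810, 1268 and 408 genes in 10 libraries) were 3119, 1988 and 770 in DESeq2 and 461, 377 and 66 when tested by glmTreat against 1.5-fold. Leaving out 1 library at a time gave 498 to 2066, 372 to 1474 and 74 to 446. All 12 libraries gave 0, 0 and 0, where DESeq2 called 611 genes and limma voom with library quality weights 1545. Sorting at an adjusted p under 0.01 left 364 and 106. Limma voom, other scalings and other filters gave 1569 to 2286 calls. The cause of these differences was not tested. Same-numbered libraries were weakly alike in their deviations from the group mean. Their 13 pairs correlated at 0.017 to 0.218 (median 0.079, 2 above 0.1), against -0.151 to 0.074 for the 24 other pairs (median -0.024). In Kira8 and in Stattic, with 2 libraries each, the deviations are mirror images. None replicate 1 thus correlated at 0.023 with Kira8 replicate 1 and at -0.023 with Kira8 replicate 3. The pairs are not independent, and part of this contrast follows from the arithmetic. Whether the replicate numbers mark a pairing was not tested, and the main fit does not use them. The fit with a replicate block gave 1784, 1273 and 375, and kept 76.9% of the 1810 calls.

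Some single genes changed sign. In 12 libraries the interaction was -2.21 for Gpr83, -2.10 for Sdf2l1, -0.17 for Spry2, 1.11 for Gzma, 0.51 for Stat3, 1.02 for Il23r, 0.016 for Bcl2, 0.12 for Bcl2l1 and 0.59 for Mcl1. Gzma was 0.004 with library size alone and Bcl2 0.060 with the replicate block. Over the leave-outs Gzma ran from -0.29 to 0.25, Il23r from -0.38 to 0.11, Bcl2 from -0.29 to 0.18 and Bcl2l1 from -0.34 to 0.13, all without a call. With 2 libraries per single inhibitor, the self-test recovered 5 of 100 interactions of 2-fold. It held far fewer changed genes than were called here, so its adjusted threshold was stricter than that of the real fit.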
